A study of Drosophila melanogaster with 3 samples.

Results

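Muscle structure genes are described here at 10 loci, sls, Mhc, Mlc2, up, wupA, Tm1, Tm2, Act57B, bt and Msp300, out of 13945 protein-coding genes of the Drosophila annotation. They were listed by name for their protein products, and the rule uses no measured value, although the list was drawn up with earlier results of these data known. The data are chromatin immunoprecipitation sequencing (ChIP-seq) peak lists for the protein CG11504, made from whole embryos of both sexes aged 0 to 18 h. All 3 biological replicates belong to 1 group: a transgenic fly line that stably makes CG11504 with green fluorescent protein (GFP) on its C-terminal end, in which an antibody against GFP collected DNA fragments of 200 to 800 bp. The study has no second genotype, stage or tissue, and no library from flies without the tag was analysed here.

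The unit of contraction in striated muscle is the sarcomere, in which thick filaments of myosin slide along thin filaments of actin. Myosin consists of heavy chains, which are the motor, and light chains, which stiffen and regulate it. Tropomyosin lies along the actin filament and, with the troponin complex, lets myosin bind when calcium rises. Giant proteins of the titin family tie thick filaments to the Z-disc, where thin filaments are anchored, and other proteins tie the contractile apparatus to the nuclei and the cell membrane. In the fly embryo most of these genes are switched on when myoblasts fuse into the larval body wall muscles.

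The main list, called the IDR list here, has 10650 peaks, kept by the authors for a low irreproducible discovery rate, which scores how well the order of peaks repeats between replicates. Each replicate list, like the pooled list, stops at 30000 peaks. Rank 1 is the peak with the highest deposited signal of a list. The summit is the point of a peak that the authors' caller gave as its highest. In a whole embryo, strong occupancy in few cells and weak occupancy in many cells cannot be told apart, and the peaks do not say which cell types they come from. No expression data were used, so the labelled stage and tissue were not checked against markers. Read depth is unknown.

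The IDR list had summits in or near some of these genes and none at others, and 2 genes held most of them. Absence from this list is not absence of signal, since some of the latter genes had weaker summits in the longer lists. In all, 20 IDR summits lay inside the 10 genes or within 5 kb of them, of which 9 belonged to Msp300 and 6 to Tm1. Mlc2 had 2, and sls, Tm2 and Act57B had 1 each. Mhc, up, wupA and bt had none. A summit inside the gene or within 5 kb was thus present at 6 of 10 genes (60%), against 52.6% of all protein-coding genes. At Mlc2 and Tm2 these summits were within 500 bp of start sites of other genes. Without summits at other genes' start sites only, the number was 4 of 10, a setting chosen after seeing the data. A summit within 500 bp of one of the gene's own start sites, called a promoter summit here, was present at 3 of 10 genes, sls, Tm1 and Msp300 (30%, 95% exact binomial interval 6.67 to 65.2), against 22.9% of all protein-coding genes. Among the 10650 strongest peaks of each replicate, promoter summits were at the same 3 genes in 3 of 3 replicates. In those peaks a summit in or within 5 kb was at 6, 7 and 6 genes in replicates 1, 2 and 3, with Mhc added in replicate 2. Both shares are near those of the whole gene set at this number of genes.

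**Figure D1:**
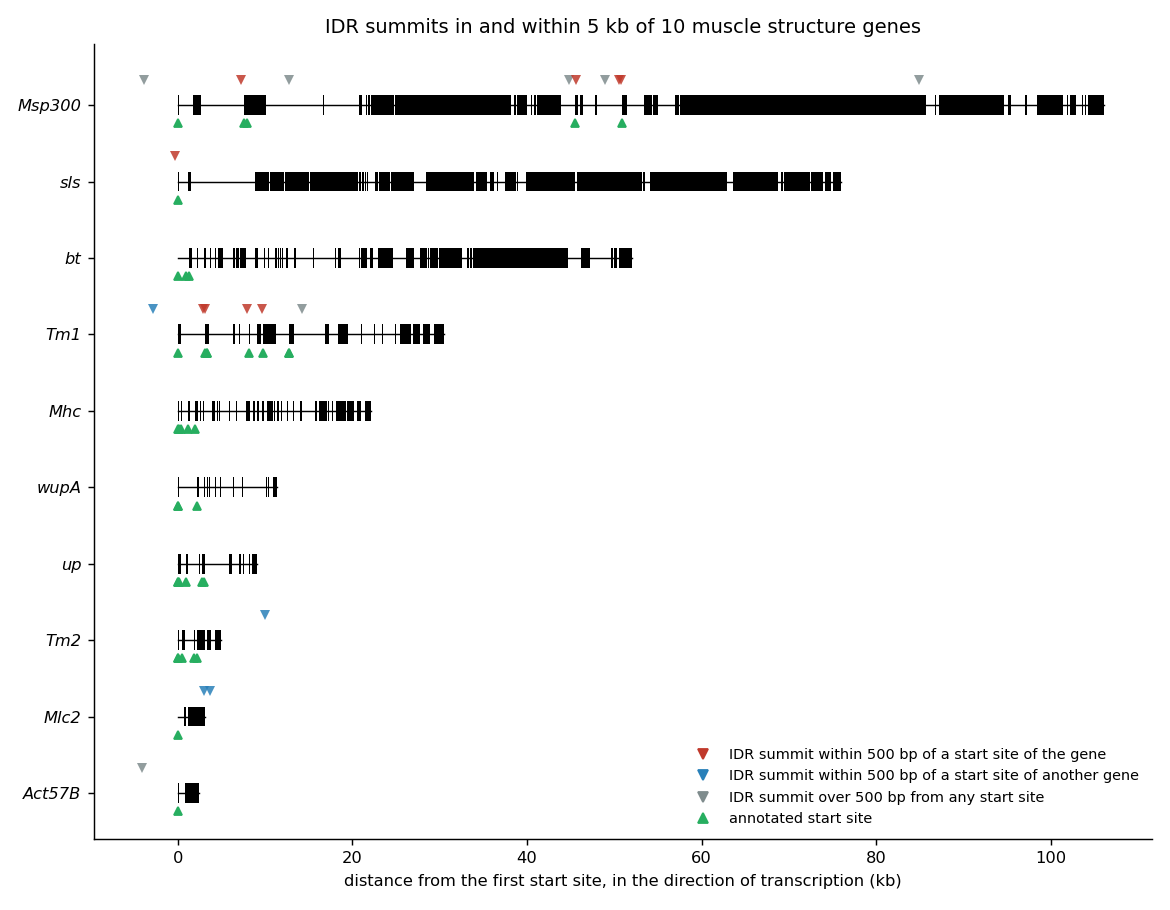
Maps of the 10 genes, longest at the top, with distance from the first start site in kb on the x axis. Black boxes are exons of any transcript, green triangles annotated start sites, and triangles above each gene IDR summits, coloured by whether they lie within 500 bp of a start site of that gene, of another gene or of neither. Msp300 and Tm1 carry 15 of the 20 summits, and the summit of sls is upstream of its only start site.

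Length matters for such counts. Of the 5 members longer than 20 kb, 3 had a summit in or within 5 kb, against 86.7% of the 1013 protein-coding genes of that length, and the same 3 had a promoter summit, against 52.8%. None of the 5 members up to 20 kb long had a promoter summit, against 20.6% of the 12932 genes of that length. The 95% exact binomial intervals, 14.7% to 94.7% for 3 of 5 and 0% to 52.2% for none of 5, cover these shares over all genes. Over the members with 5 kb on each side, 409 kb in all, there were 0.489 IDR summits per 10 kb, against 0.862 over all protein-coding genes with the same flanks and 0.885 over those longer than 20 kb. This difference was not tested. The members' length includes bt on chromosome 4, where 13.8% of the 80 protein-coding genes had a summit in or within 5 kb. In the 10650 strongest peaks of the replicates the number of summits in or within 5 kb of the members was 21, 23 and 21 in replicates 1, 2 and 3 (21.7 ± 1.15, SD, n = 3).

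**Figure D2:**
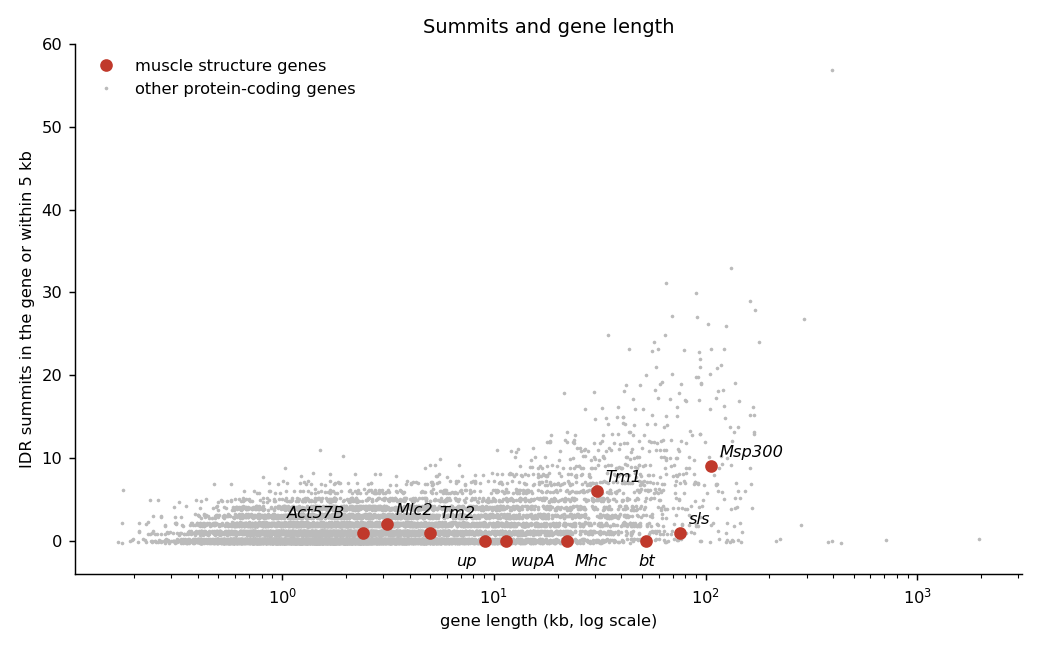
Number of IDR summits in the gene or within 5 kb (y axis) against gene length in kb (x axis, log scale), with the 10 muscle structure genes in red and every other protein-coding gene in grey, the grey points moved slightly up or down at random so that they can be seen. Msp300 with 9 and Tm1 with 6 summits stand above the median of 4 for genes over 20 kb, while Mhc and bt, also over 20 kb, are at 0 and sls at 1. Genes at least as long as Msp300 have a median of 7, and those at least as long as Tm1 a median of 5.

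Msp300 (FBgn0261836; 2L, 5100877 to 5207002, forward strand, dm6) encodes a giant protein of the nesprin family that connects muscle nuclei and Z-discs to the cytoskeleton. It is the longest member, at 106 kb, and has 5 annotated start sites. Its 9 summits compare with a median of 7 over the 76 protein-coding genes at least as long, of which 47 had 9 or fewer. Per length it had 0.775 summits per 10 kb with its flanks, below the 0.885 of genes over 20 kb. Its strongest peak (5148989 to 5150602) was also the strongest of any member, at rank 116 of 10650. The ranks were 115, 139 and 114 in replicates 1, 2 and 3 (mean 123 ± 14.2, SD, n = 3), and the 3 replicate summits lay within 9 bp of the IDR summit. This summit was in an intron, 1874 bp upstream of the last start site. A second intron peak (5145269 to 5146059) had rank 310 in the IDR list and 337, 265 and 367 in the replicates, with its summit 634 bp upstream of start site 4. The peak with rank 601 (5107850 to 5108376) was a promoter peak, 356 bp upstream of the second start site, from which 2 transcripts are annotated, with ranks 595, 532 and 784 in the replicates. These 3 peaks were in the strongest 1000 of every list.

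The other 6 summits of Msp300 were weaker, at ranks 5392 to 9382. At the last start site, which begins 3 transcripts, there were promoter summits at offsets of -310 bp (rank 5553) and -110 bp (rank 8391). The first repeated at ranks 5469, 6233 and 5595, while the second fell outside the strongest 10650 peaks of replicates 2 and 3, at ranks 10340, 10946 and 13796. At start site 4 a promoter summit lay 116 bp downstream, in the 5' UTR (rank 9382, and 11917, 9442 and 8133 in the replicates). Together with the 2 strong intron summits, 5 summits fell within 5.89 kb around these 2 internal start sites. The remaining 3 were in an intron (rank 7704), in a coding exon (rank 5392) and 3841 bp upstream of the gene, in a coding exon of CG4230 (rank 9320). The coding exon peak inside Msp300 had ranks 4627 and 5794 in replicates 1 and 3 and no summit within 100 bp in replicate 2, the only one of the 20 peaks that was missing from a whole replicate list. The first start site of Msp300, which begins 4 transcripts, had no IDR summit within 500 bp, the nearest being the one in CG4230.

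The sequences at 4 Msp300 summits are shown because they are the 3 strongest summits inside the gene and the stronger promoter summit of its last start site. Each runs 5′ to 3′ on the forward strand (the coding strand of Msp300), 50 bp on either side of the summit, from the NCBI reference genome in dm6 coordinates. Capitals mark matches, on either strand, to 6 words searched at all summits. These were TATAAA, the TATA box, then GAGAG, the word of the GAGA factor, then TAATTA, a homeodomain word, then GTATTT with no factor assigned, then CANNTG, the E box of bHLH factors, and the motif of the muscle transcription factor MEF2. The summits of ranks 116, 310, 601 and 5553 follow.
Msp300 intron, rank 116, chr2L:5149825-5149925: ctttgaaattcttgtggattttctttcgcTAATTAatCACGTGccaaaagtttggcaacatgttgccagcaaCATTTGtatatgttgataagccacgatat
Msp300 intron, rank 310, chr2L:5145702-5145802: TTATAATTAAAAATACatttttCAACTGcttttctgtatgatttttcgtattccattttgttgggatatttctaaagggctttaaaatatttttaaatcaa
Msp300 start site 2, rank 601, chr2L:5108106-5108206: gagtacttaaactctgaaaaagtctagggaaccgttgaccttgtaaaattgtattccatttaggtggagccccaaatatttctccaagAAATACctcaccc
Msp300 last start site, rank 5553, chr2L:5151389-5151489: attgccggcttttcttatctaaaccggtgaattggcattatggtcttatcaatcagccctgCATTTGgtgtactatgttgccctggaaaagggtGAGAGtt
The window at rank 116 held TAATTA and 2 E boxes. At the left end of the window at rank 310 TAATTA lies within the match of the MEF2 motif, and the reverse of GTATTT follows directly after that match, so that the 3 form 1 run of capitals. The bases around that summit were 21.8% G or C, against 35.6%, 39.6% and 43.6% in the windows at ranks 116, 601 and 5553.

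Tm1 (FBgn0003721; 3R, 15278220 to 15308779, forward strand) encodes tropomyosins, both of muscle and of other cells, from transcripts that begin at 8 annotated start sites. Its 6 summits compare with a median of 5 over the 652 protein-coding genes at least as long, of which 398 had 6 or fewer. Of these 8 sites, 5 had an IDR summit within 500 bp, and 14 of the 18 annotated transcripts begin at them. The strongest promoter summit (peak 15280887 to 15281374, rank 1988) lay 251 bp upstream of start site 2 and had ranks 1923, 1732 and 3243 in the replicates (mean 2300 ± 823, SD, n = 3). The same region carried a second summit 36 bp upstream of that site, at rank 9503. Start sites 2, 3 and 4 lie within 179 bp of each other, so that they share these 2 summits. Farther along the gene, a summit 228 bp upstream of start site 5 had rank 8410 and one 117 bp upstream of start site 6 had rank 5337 (4625, 7142 and 5033 in the replicates). A further summit lay in an intron 1550 bp downstream of the last start site (rank 7281). The first start site and the last pair had no summit within 500 bp.

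The peak of highest rank near Tm1 was not at one of its own start sites. It had rank 335, and ranks 349, 363 and 330 in the replicates, and lay 2839 bp upstream of the gene. This summit was 140 bp upstream of the start of Cp190, which encodes an insulator protein and is transcribed away from Tm1. By the rule of 5 kb it counts for Tm1, although its nearest start site belongs to Cp190.

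Sequence at the summits upstream of 3 Tm1 start sites, and upstream of the sls start site, is shown because, with those of Msp300, these are the genes with a promoter summit. Of the 9 promoter summits, those of ranks 8391, 9382 and 9503 are not shown. Each is 50 bp on either side of the summit on the coding strand of its gene, which is the reverse strand for sls.
Tm1 start site 2, rank 1988, chr3R:15281070-15281170: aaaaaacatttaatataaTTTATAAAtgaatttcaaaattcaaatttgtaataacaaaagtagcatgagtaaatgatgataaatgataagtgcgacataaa
Tm1 start site 5, rank 8410, chr3R:15286141-15286241: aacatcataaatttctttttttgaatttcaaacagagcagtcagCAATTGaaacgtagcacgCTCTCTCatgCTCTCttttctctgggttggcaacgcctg
Tm1 start site 6, rank 5337, chr3R:15287845-15287945: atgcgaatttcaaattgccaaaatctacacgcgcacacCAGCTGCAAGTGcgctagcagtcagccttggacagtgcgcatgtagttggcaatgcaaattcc
sls start site, rank 1505, chr3L:2115840-2115940: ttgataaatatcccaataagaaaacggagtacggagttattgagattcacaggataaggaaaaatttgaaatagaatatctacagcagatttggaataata
The 3 Tm1 windows differed from each other. The first was 18.8% G or C, the lowest of the 20 summits, and held TATAAA on both strands, overlapping. The second held 3 matches of GAGAG, 2 of them overlapping, and an E box, and the third held 2 E boxes directly beside each other and was 49.5% G or C. The sls window (29.7% G or C) held none of the 6 words.

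**Figure D3:**
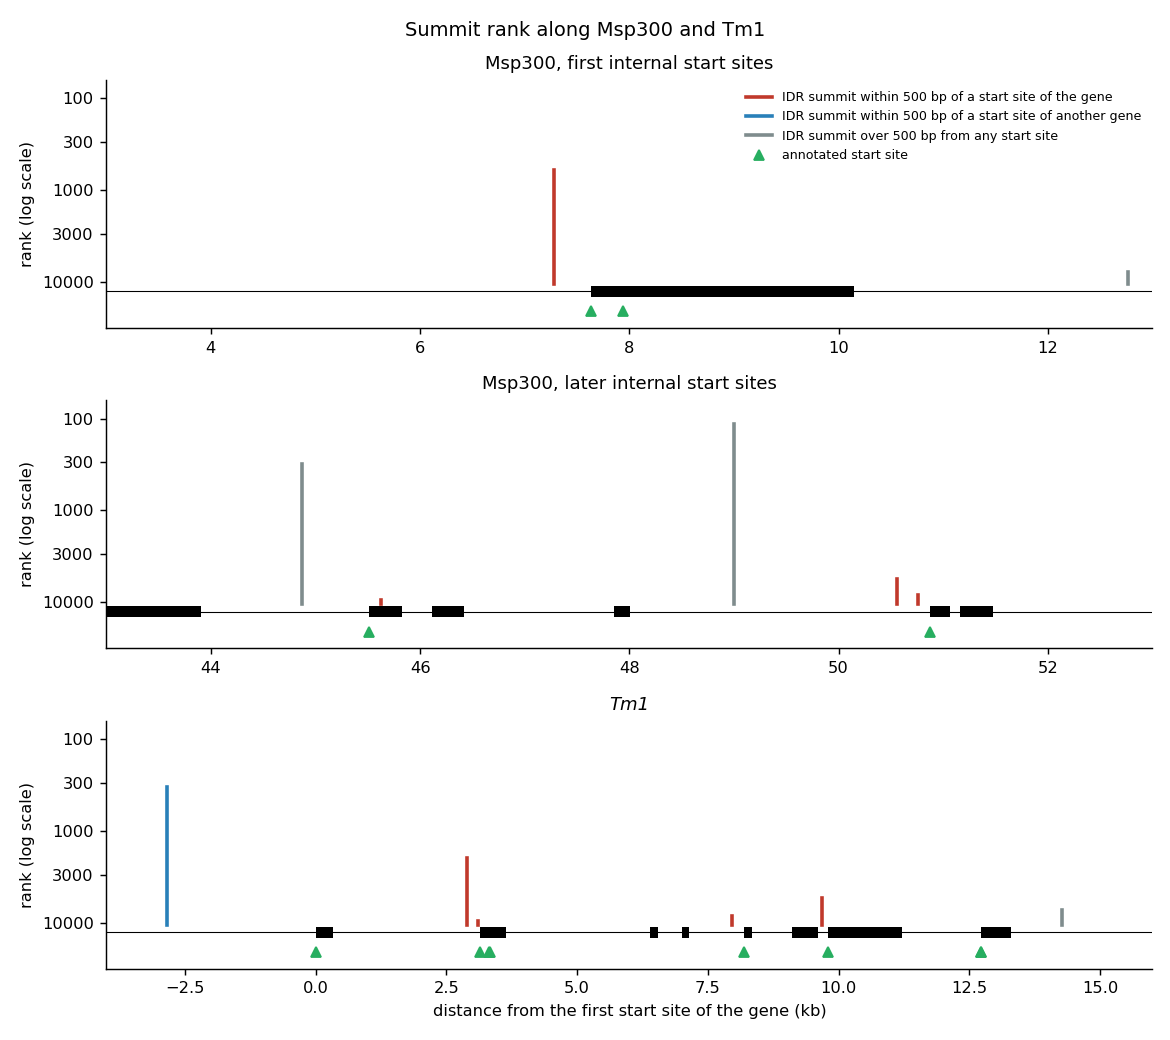
IDR summits along parts of Msp300 (upper and middle panel) and Tm1 (lower panel), with distance from the first start site of the gene in kb on the x axis and a bar up to the summit's rank in the IDR list on the y axis (log scale, strongest at the top). The tallest bars of Msp300, at ranks 116 and 310, are over 500 bp from any start site, while the bars at the start sites of Tm1 reach ranks 1988 to 9503 and the tallest bar of that panel, at rank 335, is at Cp190.

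The titin-like genes were unlike Msp300. The gene sls (FBgn0086906; 3L, 2039681 to 2115611, reverse strand) encodes Sallimus and kettin, elastic proteins that reach from the Z-disc towards the thick filament. All 13 of its annotated transcripts begin at 1 start site, and its only IDR summit lay 279 bp upstream of it (peak 2115680 to 2116116, rank 1505, with ranks 1730, 1545 and 1359 in the replicates, mean 1540 ± 186, SD, n = 3). No IDR summit lay within its 75.9 kb, and the whole lists of 30000 peaks had 1, 1 and 0 summits inside the gene in replicates 1, 2 and 3. Of the 148 protein-coding genes at least as long as sls, 29 had 1 or no IDR summit in or within 5 kb, and the median over all 148 was 7. With a promoter window of 250 bp the summit of sls no longer counts. 

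The gene bt (FBgn0005666; 4, 724400 to 776474, forward strand) encodes projectin, a giant kinase of the thick filament. It had no summit in or within 5 kb in the IDR list, and none in the whole pooled list or in the whole list of any replicate. The nearest IDR summit was 219082 bp away. The small chromosome 4 held 9 IDR peaks in all, and 23, 33 and 44 peaks of the whole lists of replicates 1, 2 and 3. Of its 80 protein-coding genes, 13.8% had an IDR summit in the gene or within 5 kb.

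The myosin genes Mhc and Mlc2 and the troponin genes up and wupA had no promoter summit in the IDR list. Mhc (FBgn0264695; 2L, 16766566 to 16788766, forward strand), the single gene for the muscle myosin heavy chain, had no IDR summit within 27706 bp of the gene. In replicate 3 alone a summit of rank 13975 lay 13 bp upstream of start site 2 of its 5, and in replicate 2 the strongest summit nearby had rank 10258 and lay 4438 bp upstream of the first. Mlc2 (FBgn0002773; 3R, 30171438 to 30174551, reverse strand), the regulatory light chain of muscle myosin, had 2 IDR summits, at ranks 3476 and 9242, both beyond or at the end of the gene. They lay 359 bp downstream and 335 bp upstream of the start of the next gene, Rsod, the second of them within the 3' UTR of Mlc2. The nearer of them was 3009 bp from the start site of Mlc2 itself.

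The gene up (FBgn0004169; X, 13593474 to 13602578, reverse strand) encodes troponin T, the part of the troponin complex that holds it to tropomyosin. It had no IDR summit within 20734 bp. A weak summit repeated in its intron 643 to 743 bp upstream of an internal start site, with ranks 15399, 20353 and 13599 in replicates 1, 2 and 3. The gene wupA (FBgn0283471; X, 18105568 to 18116922, reverse strand) encodes troponin I, the inhibitory part of the complex, and its nearest IDR summit was 8376 bp away. Weak summits 579 to 667 bp upstream of its first start site had ranks 11376, 13189 and 16812 in the replicates and rank 11704 in the pooled list, past the 10650 peaks of the IDR list. Within 500 bp of a start site, weak summits 255 to 335 bp downstream of its second start site had ranks 27011, 16459 and 26264. Both troponin genes thus had summits that repeated in 3 of 3 replicates and are not in the IDR list.

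Tm2 (FBgn0004117; 3R, 15310193 to 15315197, forward strand) encodes a muscle tropomyosin and lies downstream of Tm1. It had no IDR summit within 500 bp of any of its 5 start sites. The 1 summit counted for it was 4986 bp beyond its end, just inside the limit of 5 kb, and lay 114 bp upstream of the start of CG6276 (rank 3848, and 4188, 3851 and 4139 in the replicates). The next IDR summit was just outside the limit, at 5186 bp from the gene. The neighbouring tropomyosin genes thus differed in the IDR list, with summits at 5 of 8 start sites of Tm1 and at 0 of 5 of Tm2, a difference that was not tested. Start sites 2, 3 and 4 of Tm1 share their summits, and Tm1 is 30.6 kb long, against 5 kb for Tm2. In the pooled list and the whole lists of replicates 2 and 3, Tm2 did have a promoter summit.

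Act57B (FBgn0000044; 2R, 20944021 to 20946431, forward strand) encodes a muscle actin of the embryo and larva. Its 1 IDR summit lay between genes, 4058 bp upstream of its only start site, and no other annotated start site was nearer. The peak had rank 2548, and ranks 2967, 2762 and 2221 in the replicates (mean 2650 ± 385, SD, n = 3). The window of 50 bp on either side of this summit held TATAAA as well as TAATTA, an E box and the MEF2 motif. The next IDR summit was 5725 bp from the gene.

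The order of the 20 peaks was similar in the 3 replicates. Of the 20 peaks, 15 (75%, 95% exact binomial interval 50.9 to 91.3) had a summit within 100 bp among the 10650 strongest peaks of all 3 replicates, against 72.2% of all IDR peaks. In the whole replicate lists it was 19 of 20 (95%), against 91.9% of all IDR peaks. Across the 19 peaks present in all lists, Spearman's rho of the ranks was 0.891 between replicates 1 and 2. Replicate 3 gave 0.919 with replicate 1 and 0.94 with replicate 2. This is a description across peaks, several of which share a gene. The IDR list is not independent of the replicate lists it came from, and all lists share a control. The median rank of the 20 peaks was 5364.5, against 5325.5 for the IDR list as a whole, and 4 of them (20%) were among the 1000 strongest peaks, against 9.39% of all IDR peaks. These 4 were the peaks of ranks 116, 310 and 601 at Msp300 and that of rank 335 at the start of Cp190, upstream of Tm1.

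**Figure D4:**
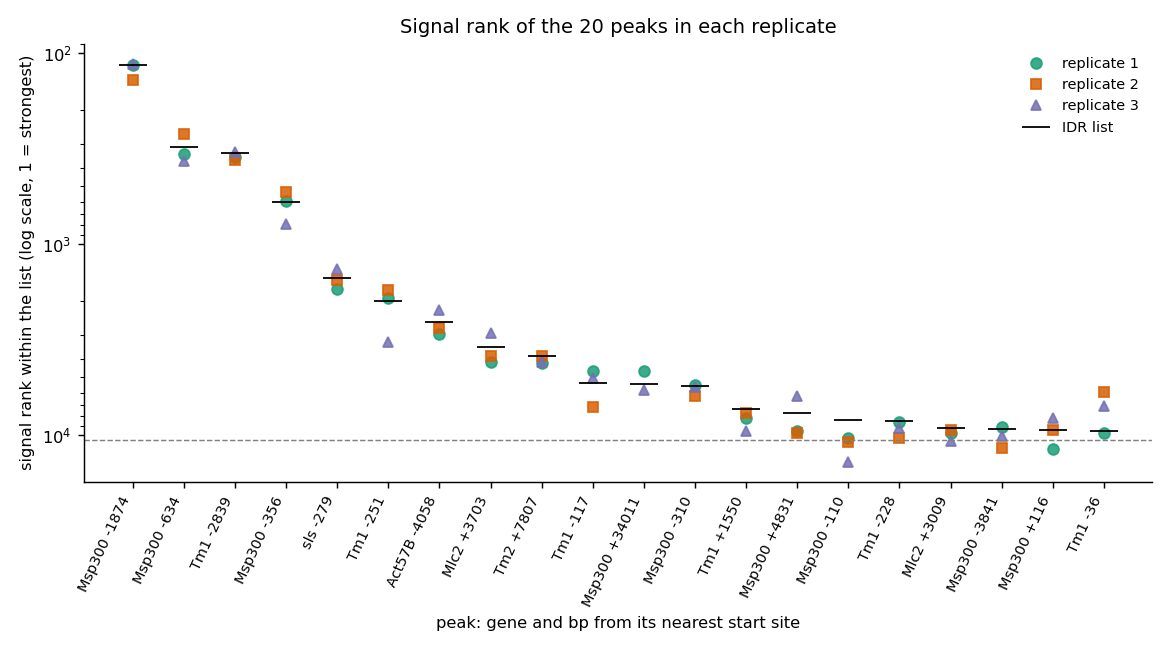
Signal rank (y axis, log scale, strongest at the top) of the 20 peaks in the 3 replicates (coloured symbols) and the IDR list (black bars), ordered by IDR rank, with each peak named by its gene and its offset in bp from the gene's nearest start site. The dashed line marks rank 10650, which some of the replicates pass at some of the weaker peaks. The 9 strongest peaks have ranks between 114 and 4188 in every replicate.

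By position, 13 of the 20 summits (65%, 40.8 to 84.6) were within 500 bp of a start site of some gene, against 32.7% of all IDR summits. Of these 13, 9 were at a start site of a member and 4 at a start site of another gene only, namely Cp190, CG6276 and, with 2 summits, Rsod. Introns held 4 of 20 (20%, 5.73 to 43.7), against 43.4% of all IDR summits, coding exons held 2 (10%), against 0.901%, and 1 (5%) lay between genes, against 20.4%. The intervals are 95% exact binomial ones and treat summits as independent, although 15 of the 20 come from 2 genes. The members' summits and the whole list were not chosen alike. Member summits had to lie inside a gene or within 5 kb of it. Of the 10650 IDR summits, 9599 lie that close to a protein-coding gene. The lower share between genes thus follows in part from the rule, which also bears on the other shares. Over single start sites, 9 of the members' 38 (23.7%) had an IDR summit within 500 bp, against 21.9% of all start sites of protein-coding genes. Those 9 sites begin 33 of the members' 107 annotated transcripts, 13 of them from the sls start site and 14 from Tm1. For transcripts, here and at Tm1, no share over all protein-coding genes was computed. Among the 10650 strongest peaks of the replicates, the number of such start sites was 8, 9 and 9 in replicates 1, 2 and 3.

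Every promoter summit of the members was upstream of its start site except the one in the 5' UTR of Msp300. The offsets of the other 8 ran from -356 to -36 bp. In the whole pooled list of 30000 peaks, which includes weaker peaks, promoter summits were at 6 of 10 members, against 30.4% of all protein-coding genes, a difference that was not tested. The 3 added members were Mlc2, wupA and Tm2.

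The sequence around the members' summits was 37.1% ± 10.9 G or C (SD over 20 summits, 50 bp on either side), against 33.3% ± 10.4 for all 10650 IDR summits. The members' 9 summits stronger than the middle of the IDR list had 29.5% ± 7.75, against 32.3% ± 10.2 for all such summits. Their 11 summits weaker than the middle had 43.3% ± 9.04, against 34.4% ± 10.5. All of these 11 except the one at the end of Mlc2 were counted for Msp300 or Tm1. The SD is thus a spread over summits and not over genes. Of the words searched, CANNTG was found at 12 of 20 member summits (60%), against 34.1% of all IDR summits, and GAGAG at 5 (25%), against 9.03%. All 5 GAGAG summits and most of the 12 CANNTG summits were those counted for Msp300 and Tm1, so these shares rest largely on 2 genes. TATAAA was at 5 (25%), against 24.1%, GTATTT at 5 (25%), against 15.4%, TAATTA at 3 (15%), against 10.8%, and the MEF2 motif at 3 (15%), against 7.45%. The 3 MEF2 matches were at Msp300 (rank 310), Act57B and the weaker summit at the end of Mlc2. A match to a word does not show that a factor binds there, and no difference was tested.

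Other genes of muscle and of the cytoskeleton were counted in 4 lists by the same promoter rule. Of 27 other sarcomere genes, 6 had a promoter summit (22.2%, 95% exact binomial interval 8.62 to 42.3). The strongest were at Act87E (rank 1621), a muscle actin, tmod (rank 2772), which caps the slow-growing end of actin filaments, cpa (rank 4721), part of the protein that caps the other end, and Actn (rank 4731), the α-actinin of the Z-disc. Act79B, Act88F and cpb had none. Of 5 genes of calcium handling, 2 had a promoter summit: Calx (rank 2147), the sodium-calcium exchanger, and RyR (rank 6278), the ryanodine receptor. Ca-alpha1D, jp and SERCA had none.

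Of 15 genes of muscle attachment, which link the sarcomere to integrins and the tendon matrix, 8 had a promoter summit (53.3%, 26.6 to 78.7). The strongest were at wb (rank 317), a laminin chain, Pax (rank 359), the paxillin gene, Vinc (rank 1068), the vinculin gene, and if (rank 4335), an integrin α subunit. Fit1, Fit2 and Ilk had none. Of 7 genes of cytoplasmic actins and myosins, 4 had one: sqh (rank 1079), the regulatory light chain of non-muscle myosin, Act5C (rank 1700), jar (rank 8797), a myosin VI, and zip (rank 10248), the heavy chain of non-muscle myosin. Act42A, ck and Mlc-c had none. The share over all protein-coding genes was the 22.9% given above, and 52.8% over those longer than 20 kb. These lists were not matched for length. Of the attachment genes named, wb (65236 bp), Pax (25844 bp) and if (31246 bp) are over 20 kb, while Vinc (8221 bp) is not. In the IDR list the non-muscle heavy and regulatory light chains thus had promoter summits while their muscle counterparts Mhc and Mlc2 did not. This contrast of single genes was not tested and depends on the cutoff. The summit of zip had ranks 8700, 11140 and 9036 in replicates 1, 2 and 3, and that of sqh 1156, 1067 and 1083. Mlc2 had a promoter summit in the pooled list and in the whole lists of replicates 1 and 3. Mhc had one only in the whole list of replicate 3. Other genes of these kinds were mixed in the IDR list. The light chain genes Mlc-c, of the cytoplasmic list, and Mlc1, of the sarcomere list, both had no promoter summit. Among the actins, cytoplasmic Act5C had one and Act42A none, while of the muscle actins Act87E had one and Act57B, Act79B and Act88F had none. Actin genes are nearly identical in their coding sequence, and how reads that fit several copies were treated is not given in the sources used here.

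**Figure D5:**
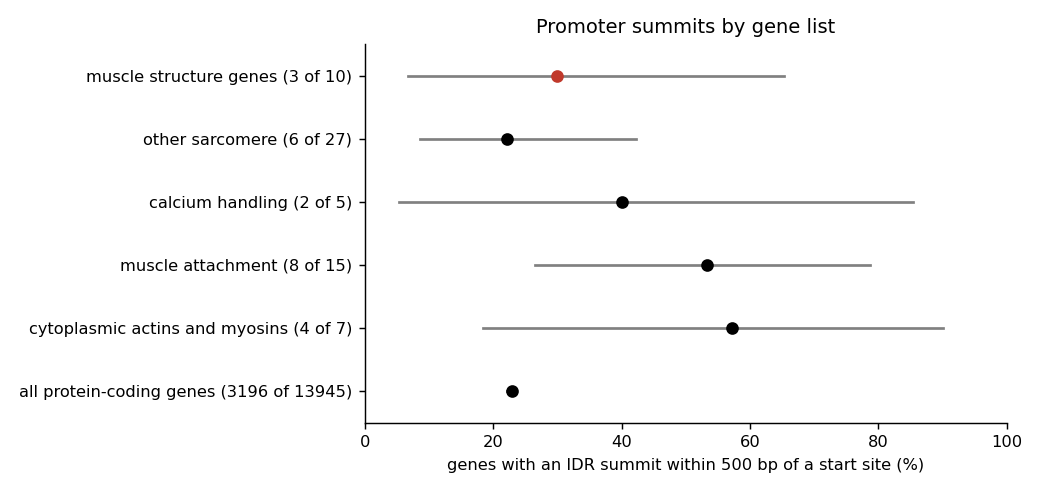
Share of genes with an IDR summit within 500 bp of a start site (x axis, %), for the 10 muscle structure genes (red), the 4 other lists and all protein-coding genes (black), with the counts beside each name. Grey lines are 95% exact binomial intervals over genes, which for the muscle structure genes reach from 6.67% to 65.2%.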

How the data were processed

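ChIP-seq peak lists of 3 biological replicates (numbers per the labels), of the replicates pooled and of the IDR threshold were used. The authors deposited them in dm6 coordinates with a signal value for each peak. Its scale is not known here, and signal was therefore used only as a rank within 1 list. The summit offset, another deposited value of the authors, was turned into a position counted from 1. Per the file headers of the texts deposited beside them, replicate and pooled lists share 1 control alignment, and these lists are the source of the IDR list. Which aligner, peak caller and read filters were used is not given in the sources used here. Read depth is unknown, and intervals cover counting error over genes or peaks only.

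Genes came from Ensembl release 115 (BDGP6.54, the coordinates of dm6), without transposable elements, on the major arms and chromosome 4. All 10 members and all 54 other listed genes were matched, Unc-89 as Obsc through RefSeq synonyms. A summit counted for a gene inside it or within 5 kb, and as a promoter summit within 500 bp of any annotated start site. Each summit got 1 class, with promoters taking precedence over exons, and exons over introns. Replicates matched when summits lay within 100 bp among as many of the strongest peaks as the IDR list holds. Counting was tested on planted summits. No p-value was computed, since there is 1 group. The members and lists were chosen with earlier results of these data known. Named were all members, the nearest gene where it was not the member, and for each list up to 4 genes with the strongest promoter summit and up to 3, first in the alphabet, without one. Computations used Python 3.11.15, numpy 2.4.6, pandas 2.3.3, scipy 1.17.1 and matplotlib 3.10.9.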

Additional observations from a re-analysis of the deposited data

How the results depend on the processing

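Of 56 values recomputed under other settings, 35 stayed within 1.5 times the count, the interval of the share or 1 SD of the replicates. The number of genes with a promoter summit was 3 in the IDR list, 1 among its 1000 strongest peaks and 6 in the pooled list. The number with a summit in or within 5 kb was 6, against 3 with no flank and 2 among the 1000 strongest peaks. It was 4 when a summit counted only for the gene with the nearest start site. Without summits at other genes' promoters, a setting chosen after seeing the data, it was also 4. The 20 summits became 9 above the median signal, 4 among the 1000 strongest peaks and 67 in the pooled list. Density was 0.489 per 10 kb, against 0.45 with a flank of 2 kb, 0.44 with none, 0.22 above the median signal and 0.0977 in the 1000 strongest peaks. The share at promoters was 65%, but 35% with a window of 250 bp, and that in introns 50% in the 1000 strongest peaks. The share matched in all replicates was 100% above the median signal, and 95% in the whole replicate lists, a setting chosen after seeing the data. The median rank was 6417 with no flank and 1505 above the median signal, where the GC content was 29.5%, against 38.7% with no flank. Of the 54 other listed genes, 20 had a promoter summit, 11 above the median signal and 2 in the 1000 strongest peaks. The stricter lists hold fewer peaks, and the pooled list more, by construction.

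Keeping only IDR summits matched in both other replicates, with each replicate left out in turn, gave 3 to 3 genes with a promoter summit, 6 to 6 with a summit in or within 5 kb and 16 to 17 summits. Density ranged from 0.391 to 0.415 per 10 kb, the median rank from 3662 to 3848 and the GC content from 34.3% to 37%. The promoter share ranged from 58.8% to 68.8%, the intron share from 23.5% to 25% and the other listed genes from 17 to 19. The matched share, 80% to 85%, is that of all 20 summits and so restates the number kept. No paired analysis was possible because there is 1 group and no test.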
